A study of Mus musculus with 14 samples.

Results

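The apolipoprotein genes followed here are Apoa1, Apoa2, Apoa4, Apoa5, Apob, Apoc1, Apoc2, Apoc3, Apoe and Apom, chosen by gene symbol. They are 10 of 29737 gene symbols that appear in any of the 3 deposited tables, and all 10 were found in each table. The study measured RNA of mouse liver in 12 bulk libraries, in 4 groups of 3 replicates, and in 2 single-nucleus libraries. Nothing in the labels says that replicates were separate animals, so p-values rest on the spread between these libraries, which may be technical. In the limma fits below, a gene's own spread is moderated toward a trend over all genes tested. A limma SE or p of a member is therefore not a measure of its own spread alone. The series is about lipid droplets, macrophages and nonalcoholic steatohepatitis (NASH), a fatty liver disease with inflammation.

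By their labels, the wild type and KO (Ms4a7 knockout) groups were mice kept on a NASH diet for 22 weeks. The cells in which Ms4a7 was deleted and the strain are not given in the sources used here. By theirs, the PBS and LD groups were wild type mice on chow that received PBS or lipid droplets (LD) into the tail vein on 6 days in a row. Each nucleus library pooled 3 livers of 1 genotype, wild type or KO, on the 22-week NASH diet, and its nuclei were sorted on propidium iodide before capture. The wild type and KO libraries form one deposited table, called the KO table here, and the PBS and LD libraries another, the LD table. Depth was 21945394 to 23126164 reads in genes in the 6 libraries of the KO table. It was 39318264 to 41346464 in the 5 libraries of the LD table whose reads could be recovered. Each table was scaled on its own, so tests were made within a table.

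Ms4a7, the deleted gene, checks the labels. Libraries labelled wild type had 9.70, 25.8 and 23.3 normalized counts of it, and libraries labelled KO had 102, 117 and 136. Libraries labelled PBS had 62.2, 84.7 and 163, and libraries labelled LD had 10.5, 7.60 and 9.32. Ms4a7 was therefore higher in the libraries labelled KO, which goes against that label, and lower in those labelled LD. The names the submitters gave the tables also differ from the labels: the table with the wild type and KO columns is named for LD, and the one with the PBS and LD columns for Ms4a7. Whether the tables or their labels were exchanged cannot be told from these sources, and diet, genotype and treatment below are as labelled. Of the 10 macrophage markers, 8 could be tested in the KO table and 5 of them were higher in the libraries labelled KO. So were 1 of 3 neutrophil, 1 of 8 endothelial, 1 of 7 B or plasma cell and 1 of 6 periportal hepatocyte markers. Of all genes tested, 3.02% were higher under KO. In the LD table, 4 of 8 cholangiocyte, 3 of 8 stellate and 2 of 10 macrophage markers were lower in the libraries labelled LD. There 1 macrophage marker was higher. Of 7 pericentral hepatocyte markers 2 were higher under LD, with a median log2 fold change of 0.57 over the 7. Of 6 periportal hepatocyte markers 1 was higher and 1 lower, with a median of 0.39. Of all genes tested, 1.95% were higher under LD and 2.21% lower. Of 12 general hepatocyte markers 0 passed in limma in either comparison. Of these 12, 4 had an unadjusted p under 0.05 for KO (18.7% of all genes tested) and 6 for LD (19.7%), with median log2 fold changes of -0.04 and 0.25. The libraries are named by their labels throughout, and every direction below is a direction between labels. The part of these marker shifts in the results below was not tested, and in bulk liver fewer cells of a type and less RNA per cell cannot be told apart.

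Apolipoproteins coat the lipid particles that carry cholesterol and triglyceride through blood, and the liver is a main source of most of them. Apob is the structural protein of very-low-density lipoprotein (VLDL), one copy of which stays with each particle. Apoa1 and Apoa2 are the main proteins of high-density lipoprotein (HDL), while Apoe and the C apolipoproteins move between particles and govern how they are lipolysed and taken up.

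Apoa1, Apoc3, Apoa4 and Apoa5 lie together on chromosome 9, and Apoe, Apoc1 and Apoc2 lie together on chromosome 7 (mm10 annotation). Apoa1 spans chr9:46228580-46230466, Apoc3 chr9:46232933-46235636, Apoa4 chr9:46240696-46243459 and Apoa5 chr9:46268633-46271919. Apoc2 spans chr7:19671579-19677941, Apoc1 chr7:19689481-19692660 and Apoe chr7:19696109-19699188. Apoa2 is at chr1:171225054-171226379, Apob at chr12:7977648-8016835 and Apom at chr17:35128997-35132050.

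RefSeq promoter stretches (GRCm38.p6) were found for 8 of the 10 members, as 12 entries. Those of Apob, Apoa5 and Apoe are shown because these genes had opposite patterns over the nucleus groups described further on, a choice made after the values were seen: Apob and Apoa5 stood highest in hepatocyte-like nuclei and Apoe did not. Each is printed 5′ to 3′ on the gene's own strand up to the annotated gene start, with the letters TATAAA in capitals. The stretches are chr12:7977427-7977647 on the plus strand for Apob, chr9:46268383-46268632 on the plus strand for Apoa5 and chr7:19699189-19699438 on the minus strand for Apoe.
Apob: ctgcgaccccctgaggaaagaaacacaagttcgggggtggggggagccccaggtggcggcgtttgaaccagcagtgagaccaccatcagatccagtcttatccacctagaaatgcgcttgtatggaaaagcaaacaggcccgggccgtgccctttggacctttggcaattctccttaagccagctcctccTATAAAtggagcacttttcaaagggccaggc
Apoa5: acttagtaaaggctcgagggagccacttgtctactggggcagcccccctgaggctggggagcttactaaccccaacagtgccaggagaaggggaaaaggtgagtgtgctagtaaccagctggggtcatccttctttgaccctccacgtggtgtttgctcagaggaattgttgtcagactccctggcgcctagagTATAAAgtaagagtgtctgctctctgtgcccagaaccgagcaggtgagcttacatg
Apoe: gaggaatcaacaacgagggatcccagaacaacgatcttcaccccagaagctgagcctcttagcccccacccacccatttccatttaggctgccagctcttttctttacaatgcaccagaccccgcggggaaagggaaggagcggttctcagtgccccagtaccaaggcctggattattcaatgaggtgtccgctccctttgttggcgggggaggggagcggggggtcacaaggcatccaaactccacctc
TATAAA begins 60 bases before the RefSeq start of Apob and 56 bases before that of the Apoa5 entry shown. It is not in the Apoe stretch shown. The RefSeq start of Apob lies 29 bases past the annotated gene start, where the printed stretch ends, so TATAAA is nearer to that end. The other Apoa5 entry has its start further upstream, nearer to TATAAA. Searched on both strands, TATAAA was in 5 of the 12 entries of members, among them another entry of Apoe. It was in 13.6% of all 32851 promoter entries of the same length. The other 6 motifs searched had no match in the 12 entries. They included CAAAGTCCA (in 0.475% of all entries), CAAAGGTCA (0.478%), TTGCGCAA (0.183%) and the nuclear receptor repeats DR1 (0.0396%) and DR4 (0.0152%).

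Levels of different genes were compared as normalized counts per kilobase of annotated exons. Per kilobase of all exons, Apoa2 was the highest member in the KO table, with a median of 311367 over 6 libraries (280386 to 372436). Apoe followed at 203381 (183486 to 247444) and Apoa1 at 172558 (153654 to 214969), and the ranges of these 2 neighbours overlapped. Per longest transcript the ranges of Apoa2 and Apoe also overlapped in the KO table, and Apoe was above Apoa2 without overlap in the LD table. Apoc1 stood at 89341 and Apoc3 at 39317, with no overlap between them. Apoa5, Apob, Apom and Apoc2 had medians of 6500, 4595, 4108 and 3631, and each overlapped its neighbour in that order. Apoa4 was last, at 1139 (725 to 1708). In the LD table Apoa2 and Apoe led with overlapping ranges, at 588675 (413955 to 696511) and 582638 (502733 to 718522), and Apoc2 was last at 320 (292 to 387). The 10 genes together took 3.55% to 4.24% of the signal in genes in libraries of the KO table and 5.80% to 6.85% in libraries of the LD table.

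**Figure D1:**
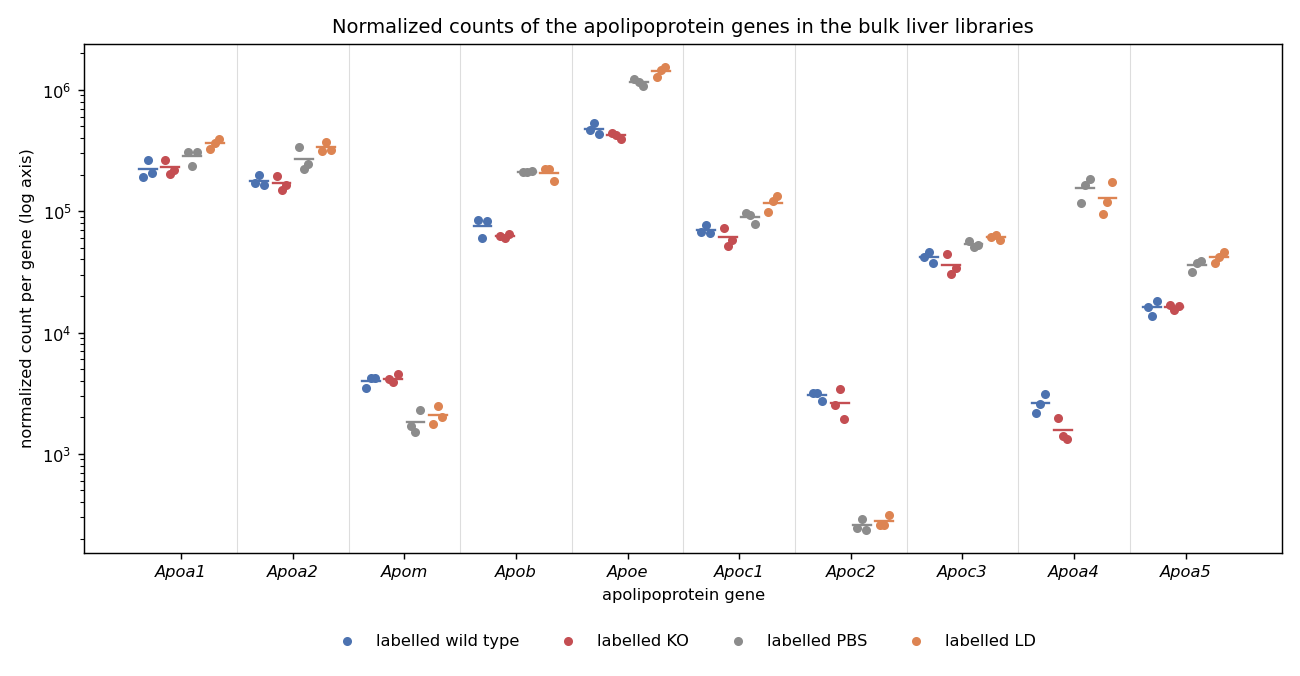
Normalized counts of the 10 apolipoprotein genes on a log axis, 1 point per bulk library and a line at the mean of each group of 3; the 2 tables were scaled separately. Within a table most groups overlap, and the widest gaps between the tables are those of Apoa4 (1316 to 3100 against 94077 to 184488) and Apoc2.

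Between the labels KO and wild type, Apoa4 had the largest difference among the apolipoprotein genes, and 9 of the 10 had groups that overlapped. With limma on log2 of the normalized count plus 1, none of the 10 genes passed an adjusted p of 0.05 (Benjamini-Hochberg over the 15827 genes tested), where 3.72% of all genes tested did (3.02% higher and 0.701% lower). All 10 passed the filter on low values, 1 had an unadjusted p under 0.05 (18.7% of all genes tested), and the groups of 1 gene did not overlap (24.2% of all genes tested, 12.4% higher and 11.7% lower). The edgeR quasi-likelihood test also called 0 of the 10 (4.09% of all genes) and DESeq2 called 1 (7.84% of all genes), both on recovered reads. Of the 10 fold changes, 3 were above 0, and their median was -0.19 on the log2 scale, beside -0.02 over all genes tested. Leaving out 1 library moved the count above 0 between 1 and 4 and the median between -0.22 (without KO replicate 1) and -0.089 (without KO replicate 3).

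The HDL genes had values near 0 between these labels. Apoa1, which forms the HDL scaffold and activates LCAT, had normalized counts of 189916, 265702 and 206537 under the label wild type and 264063, 202979 and 220026 under KO. The groups overlapped almost completely, with a log2 fold change of 0.06 (SE 0.23, limma adjusted p = 0.921). Apoa2, the other main HDL protein, ran from 165486 to 199998 under wild type and from 150567 to 193763 under KO, at -0.08 (limma adjusted p = 0.878). Apom, which carries sphingosine 1-phosphate on HDL, ran from 3502 to 4255 and from 3879 to 4509, at 0.07 (limma adjusted p = 0.792).

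Apob, the VLDL scaffold, had normalized counts of 84251, 59995 and 82740 under wild type and 62962, 60529 and 65084 under KO. One library labelled wild type was as low as those labelled KO, so the groups overlapped. The log2 fold change was -0.25 (limma adjusted p = 0.498), with a 95% interval that spanned 0. Apoe, the ligand for receptor uptake of remnant particles, had 466340, 529035 and 428029 against 441630, 426585 and 392293 in the libraries labelled KO. Its groups overlapped (log2 fold change -0.17, SE 0.25, limma adjusted p = 0.772). That SE was 0.19 with a filter on a mean of at least 50 and 0.27 with no filter, at the same fold change. In the authors' deposited table the adjusted p was 0.0758 for Apob and 0.142 for Apoe.

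Among the regulators of lipoprotein lipase, Apoc1 and Apoc3 slow the clearance of triglyceride-rich particles, Apoc2 is the cofactor of the lipase and Apoa5 favours lipolysis. Apoc1 ran from 65485 to 76230 normalized counts under wild type and from 52088 to 72602 under KO, and Apoc3 from 37643 to 46434 and from 30319 to 44046. Apoc2 was lower in number, at 2718 to 3202 and 1924 to 3407, and Apoa5 was at 13688 to 18287 and 15382 to 16836. The log2 fold changes were -0.21 for Apoc1, -0.25 for Apoc2, -0.24 for Apoc3 and 0.02 for Apoa5. Their limma adjusted p-values were 0.568, 0.561, 0.523 and 0.956, and the groups overlapped for all 4. Leaving out 1 library moved these log2 fold changes by over 1.5 times, between -0.35 and -0.11 for Apoc1, -0.46 and -0.051 for Apoc2 and -0.39 and -0.12 for Apoc3.

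Apoa4, an apolipoprotein of chylomicrons, VLDL and HDL that the liver makes more of when it stores fat, was the member with the widest gap. Its normalized counts were 2156, 2580 and 3100 under wild type and 1981, 1417 and 1316 under KO. Every library labelled KO was below every library labelled wild type. The log2 fold change was -0.74 (SE 0.19, 95% interval -1.17 to -0.31), with a limma unadjusted p of 0.00434 and an adjusted p of 0.0763. DESeq2 on recovered reads gave an adjusted p of 0.00506, edgeR 0.0781, and the authors' deposited table an adjusted p of 0.200 with a log2 fold change of -0.73. Leaving out 1 library at a time moved the limma adjusted p from 0.0408 (without KO replicate 1, where it passed) to 0.219.

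The counts of Apoa4 in this table are uncertain, because it shares exon bases with other genes. Of its 1815 exon bases, 69.8% are also exon bases of the opposite-strand genes Gm10680 and Gm47528, which are rows of the KO table but not of the LD table. These neighbours were looked up after the values were seen. Gm10680 had normalized counts of 1217, 1553 and 1791 under wild type and 1170, 852 and 790.3 under KO. Its log2 fold change was -0.70 (limma adjusted p = 0.0906) and that of Gm47528 was -0.84 (limma adjusted p = 0.0587), close to the -0.74 of Apoa4. Strand use in counting is not given in the sources used here, and without it reads of Apoa4 and of these genes cannot be told apart. Apoa5 shares 20.8% of its exon bases with the opposite-strand gene Gm47544, and Apoc2 shares 79.5% with Gm44805 on its own strand, again rows of the KO table only.

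**Figure D2:**
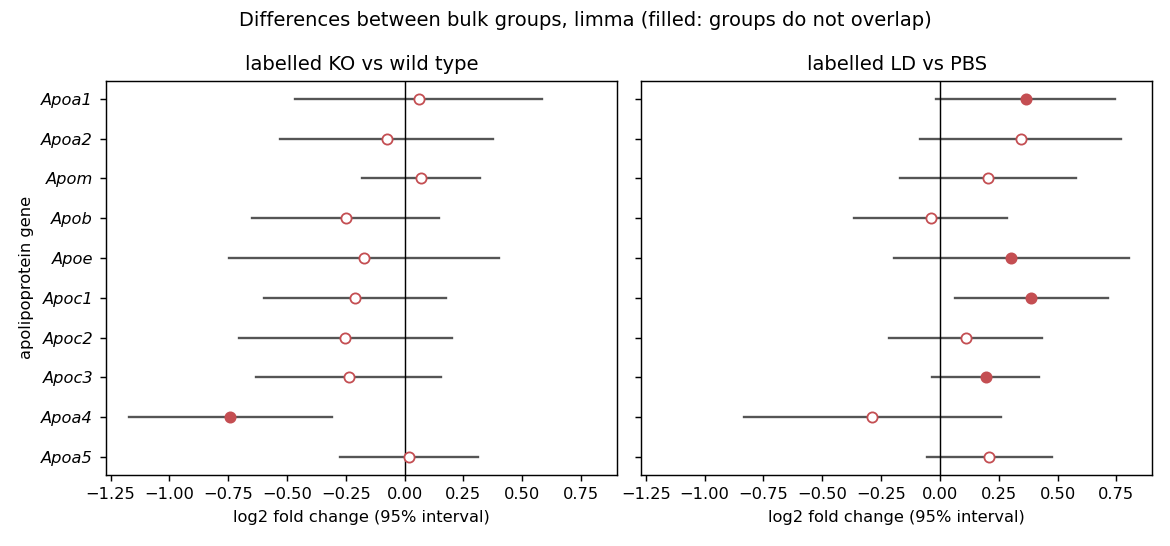
Log2 fold change of each apolipoprotein gene (points) with its 95% limma interval (lines) in the 2 bulk comparisons; filled points mark genes whose groups do not overlap. Apoa4 at -0.74 is the only filled point between the labels KO and wild type, and 4 are filled between the labels LD and PBS.

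Ratios between neighbouring genes of 1 library do not depend on how the library was scaled. In the libraries labelled wild type Apoa1 had 66.6 to 103 times the normalized count of Apoa4, and in those labelled KO 133 to 167 times. The mean log2 ratio was 0.80 higher under KO without overlap, which in an exact permutation test of 3 against 3 libraries gives p = 0.1, the smallest this design allows. Apoc3 over Apoa4 (0.50), Apoa4 over Apoa5 (-0.76) and Apoa1 over Apoc3 (0.30) also had groups without overlap, each at an exact p of 0.1. Of the 18 ratios computed in both comparisons these 4 were without overlap, and their Benjamini-Hochberg adjusted p was 0.45. The exon bases that Apoa4 shares with its opposite-strand genes enter its 3 ratios as well.

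Between the libraries labelled LD and PBS most apolipoprotein genes had fold changes above 0, none of which passed the limma test. None of the 10 passed in limma (4.16% of the 14900 genes tested did, 1.95% higher and 2.21% lower), 1 had an unadjusted p under 0.05 (19.7% of all genes tested), and the groups of 4 did not overlap (25.4% of all genes tested). All 4 were higher under LD, where 12.6% of all genes tested were without overlap and higher and 12.8% lower. Of the fold changes 8 were above 0, and the median was 0.21, beside 0.0032 over all genes tested. Quantile normalization gave 0.21 for Apoc1, 0.19 for Apoa1 and 0.17 for Apoa2, and left 7 of the 10 above 0. On the 5 libraries with recovered reads edgeR called 0 of the 10 (2.77% of all genes tested) and DESeq2 called 1 (7.27%), each with 5 at an unadjusted p under 0.05. Over all 14900 genes tested, 2680 and 2582 had such a p.

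Among the HDL genes, Apoa1 had 305762, 237388 and 305048 normalized counts in the libraries labelled PBS and 327612, 365448 and 394649 in those labelled LD. All libraries labelled LD were above all labelled PBS, at a log2 fold change of 0.36 (SE 0.17, limma adjusted p = 0.271). In the authors' deposited table the adjusted p of Apoa1 was 0.0647. Apoa2 had 336488, 222294 and 244873 under PBS and 312050, 374027 and 320188 under LD. PBS replicate 1 was above 2 of the libraries labelled LD, and the log2 fold change was 0.34 (limma adjusted p = 0.358). DESeq2, run on the 5 libraries without PBS replicate 1, gave 0.52 (adjusted p = 0.00165), while limma without that library gave 0.52 (adjusted p = 0.111). The authors' deposited table gives Apoa2 an adjusted p of 0.221. Apom ran from 1501 to 2281 under PBS and from 1778 to 2464 under LD, at 0.20 (limma adjusted p = 0.551).

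Apob overlapped between groups, at 211100, 208789 and 213468 normalized counts under PBS and 223107, 221508 and 175640 under LD (log2 fold change -0.04, 95% interval -0.36 to 0.29, limma adjusted p = 0.918). After quantile normalization Apob stood at -0.33 (SE 0.10, limma unadjusted p = 0.0102, adjusted p = 0.126). Apoe had 1217888, 1166275 and 1074843 under PBS and 1273473, 1467747 and 1536201 under LD. The groups of Apoe did not overlap, at a log2 fold change of 0.30 (SE 0.22, limma adjusted p = 0.501). In the authors' deposited table the adjusted p of Apoe was 0.0692 and that of Apob 0.950.

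Apoc1 was the member with the smallest p in this comparison. It had 96306, 93144 and 78944 normalized counts under PBS and 98731, 121676 and 132420 under LD. Every library labelled LD was above every library labelled PBS, with a log2 fold change of 0.39 (SE 0.14, 95% interval 0.06 to 0.72), an unadjusted p of 0.0243 and an adjusted p of 0.177 in limma. The authors' deposited table gives Apoc1 a log2 fold change of 0.40 and an adjusted p of 0.0424, and gives no other member an adjusted p under 0.05. Apoc3 was also without overlap (56976, 50396 and 52279 against 60662, 64052 and 57865), at 0.19 (limma adjusted p = 0.325), but its value was -0.0081 after quantile normalization. Apoa5 (31643 to 38942 against 37129 to 45796) stood at 0.21 (limma adjusted p = 0.370), with overlapping groups, and at 0.0019 after quantile normalization. Apoc2 (237.7 to 289.3 against 258.2 to 314.7) stood at 0.11 (limma adjusted p = 0.730), also with overlap.

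Apoa4 spread widely within both groups, at 117694, 163902 and 184488 normalized counts under PBS and 94077, 118991 and 175087 under LD. The groups overlapped, and the log2 fold change was -0.29 (SE 0.24, limma adjusted p = 0.565). No ratio of Apoa4 to a neighbour was without overlap here.

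Side by side, the tables differ most in Apoa4 and Apoc2. Apoa4 took 0.00502% to 0.0115% of the signal in genes in the KO table and 0.227% to 0.492% in the LD table, with medians a factor of 48.0 apart. Apoc2 went the other way, with medians a factor of 16.9 apart. Summed with Apoc4 and Gm44805 beside it, the locus took 0.0786% to 0.105% of the signal in the KO table. In the LD table, which lacks Gm44805, Apoc2 and Apoc4 together took 0.0453% to 0.0664%. Apoc2 was 8.65% to 16.3% of that sum in the KO table and 1.02% to 1.61% in the LD table. The medians of Apoa1, Apoc1 and Apoc3 were at most a factor of 1.05 apart. Those of Apom were a factor of 3.20 apart, higher in the KO table. Apob, Apoe and Apoa2 were higher in the LD table, by factors of 2.23, 1.95 and 1.23. No test was made, since diet, treatment, counting and scaling differ between tables and cannot be told apart, nor can an exchange of the tables' labels. Both genes with the wide gaps share exon bases with rows that only the KO table has. The share of Apoa4 was lower in the KO table, and that of Apoc2 was higher there. Apoa5 shares exon bases with such a row too, and its medians were a factor of 1.66 apart. The part of shared exon bases in these gaps was not tested. The KO table has 5687 symbols made of Gm and a number alone, and the LD table has 3523.

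Other genes of lipoprotein metabolism were read from the same limma fits, as counts of genes higher and lower at an adjusted p of 0.05. Between the labels KO and wild type, 0 of 15 assembly and secretion genes, 0 of 13 receptor genes and 0 of 12 other apolipoprotein genes passed, and 6, 2 and 2 of them had an unadjusted limma p under 0.05, beside 18.7% of all genes tested. In these 3 lists edgeR called 0 genes and DESeq2 called 1 receptor gene. One of 10 lipase genes passed: Angptl8, an inhibitor of lipoprotein lipase, was higher under KO (634 ± 75.6 against 1513 ± 497 normalized counts, SD, n = 3, log2 fold change 1.20, limma adjusted p = 0.0439). One of 14 HDL genes passed: Pltp, which transfers phospholipid between particles, rose from 687 ± 89.9 to 1879 ± 428 (SD, n = 3, log2 fold change 1.43, limma adjusted p = 0.0120). One of 21 transcription factors passed: Nr0b2, a co-repressor of bile acid synthesis, rose by 0.86 on the log2 scale (limma adjusted p = 0.0307). No gene of these lists passed as lower in limma.

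Between the labels LD and PBS, 0 of 15 assembly genes and 0 of 10 lipase genes passed in limma, with 1 and 5 at an unadjusted p under 0.05, beside 19.7% of all genes tested. On 5 libraries edgeR called 0 in both lists and DESeq2 called 4 lipase genes. One of 14 HDL genes was lower under LD, the acute-phase apolipoprotein Saa2 (log2 fold change -0.90, limma adjusted p = 0.0374). One of 13 receptor genes was lower, the fatty acid and lipoprotein receptor Cd36 (-0.53, limma adjusted p = 0.0196). Of 12 other apolipoprotein genes 2 were higher, Apol7a (0.47, limma adjusted p = 0.0221) and Apoc4 (0.48, limma adjusted p = 0.0356). Apoc4 lies in the chromosome 7 cluster beside Apoc2, and its mean went from 17597 ± 742 to 24646 ± 2821 normalized counts (SD, n = 3). Of 21 transcription factors, 4 were higher and 0 lower, beside 1.95% and 2.21% of all genes tested. Among them were Srebf1 and Mlxipl, which drive fat synthesis genes, at 0.65 and 0.57, and Foxa2, which acts on liver genes, at 0.62. Their limma adjusted p-values were 0.0264, 0.00587 and 0.0175. On 5 libraries edgeR called 0 HDL genes, 0 receptor genes, 1 other apolipoprotein gene and 1 transcription factor. The calls of Saa2 and Cd36 therefore ended there. So did most of the 4 transcription factor calls and at least 1 of those of Apol7a and Apoc4. The counts of these lists moved with single libraries, from 0 to 5 called in a list, as the closing section gives.

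The nucleus table gives, for 12 numbered groups in each genotype, the mean of UMIs (counted molecules) scaled to 10000 per nucleus. With 1 pooled library per genotype there is no test, and the number of nuclei behind a value is not given in the sources used here. All but 1 group could be named from markers. Groups 0 and 1 were pericentral and periportal hepatocyte-like. Of the immune cell types, group 3 was macrophage-like, group 5 neutrophil-like, group 6 like T or NK cells, group 9 like B or plasma cells and group 10 dendritic cell-like. Group 2 was stellate-like, group 4 endothelial-like, group 7 cholangiocyte-like and group 11 mesothelial-like. Group 8 stayed unnamed. In the wild type library the summed level of 8 stellate markers in group 8 was 46.6, that of 8 endothelial markers 41.8 and that of 10 macrophage markers 14.7. Ms4a7 in the macrophage-like group was at 1.25 in the wild type library and 0.622 in the KO library.

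RNA of genes taken as a liver reference was present in every group. The summed level of 10 liver reference genes (Alb, Ttr, Serpina1c, Serpina1a, Fgb, Fga, Trf, Ahsg, Hp and Fabp1) was 64.7 and 90.7 in the 2 hepatocyte-like groups of the wild type library and 9.54 to 58.7 in the remaining 10. In the KO library this sum was 86.5 and 162 in the hepatocyte-like groups and 22.9 to 126 in the others. Outside the hepatocyte-like groups it was highest in the neutrophil-like group in both libraries, at 58.7 and 126. In the KO library that is above the pericentral group. In the wild type library Hp alone of the reference genes was higher in another group than in both hepatocyte-like groups (6.98 against 3.09). In the KO library this held for Hp, Ttr and Serpina1c. In all 12 groups the reference sum was higher in the KO library, by 1.34 to 2.52 times. The sum of the 10 apolipoprotein genes was higher there by 1.51 to 2.85 times. Droplets pick up free RNA, so levels outside hepatocyte-like groups are given beside these reference genes, and how much of an apolipoprotein level is free RNA was not tested.

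Apob and Apoa5 were highest in the hepatocyte-like groups. Apob was at 15.0 and 16.7 in the pericentral and periportal groups of the wild type library and at 0.997 to 6.80 in the other groups, and at 15.1 and 18.4 against 1.22 to 8.02 in the KO library. The hepatocyte-like mean was 7.07 times the median of the other groups in the wild type library and 5.93 times in the KO library. Apoa5 was at 1.36 and 2.27 in the hepatocyte-like groups of the wild type library and at 0.190 to 0.749 elsewhere. No other group was above both hepatocyte-like groups for Apob, Apoa5 or Apoc2 in either library.

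Apob differed little between the libraries. Its ratio of KO to wild type was 0.869 to 1.53 over the 12 groups, with a median of 1.11, while medians for Apoa1, Apoa2, Apoe, Apoc1, Apoc2 and Apoc3 were 2.15 to 2.71. Apoa4 had a median ratio of 1.20 and a range of 0.565 to 1.96. In the hepatocyte-like groups the ratio of Apob was 1.01 and 1.10, beside 2.12 and 3.64 for Apoe and 2.35 and 3.26 for Apoa1. Small ratios were not particular to Apob: medians of the reference genes Hp, Trf and Fga were 1.22, 1.43 and 1.47, and that of Alb was 2.33. Each ratio compares 1 library with 1 library.

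Apoe was lower in hepatocyte-like nuclei than in most other groups. It was at 6.08 and 6.11 in the hepatocyte-like groups of the wild type library and above both in 9 of the other 10 groups, and at 12.9 and 22.2 in the KO library, where 6 groups were above both. Its highest level in the wild type library was in the macrophage-like group, at 20.8, with the neutrophil-like group next at 19.7. In the KO library the neutrophil-like group was highest, at 46.5, and the macrophage-like group had 40.7. The neutrophil-like group also had the highest reference sum outside the hepatocyte-like groups in both libraries.

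Set against the reference genes of the same group, Apoe was highest in the macrophage-like group and group 8. Apoe there was 92.7% and 84.1% of the reference sum in the wild type library and 86.7% and 76.9% in the KO library. In the other 8 groups that are not hepatocyte-like it was 33.6% to 52.1% in the wild type library and 36.9% to 58.8% in the KO library. In the macrophage-like group this was 2.23 times the median of the 10 non-hepatocyte groups in the wild type library and 1.72 times in the KO library. In the hepatocyte-like groups Apoe was 9.40% and 6.74% of the sum in the wild type library. Apoa2 had no such group: it was 16.5% to 27.4% of the reference sum in every group that is not hepatocyte-like in the wild type library, and 6.82% and 4.56% in the hepatocyte-like groups.

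**Figure D3:**
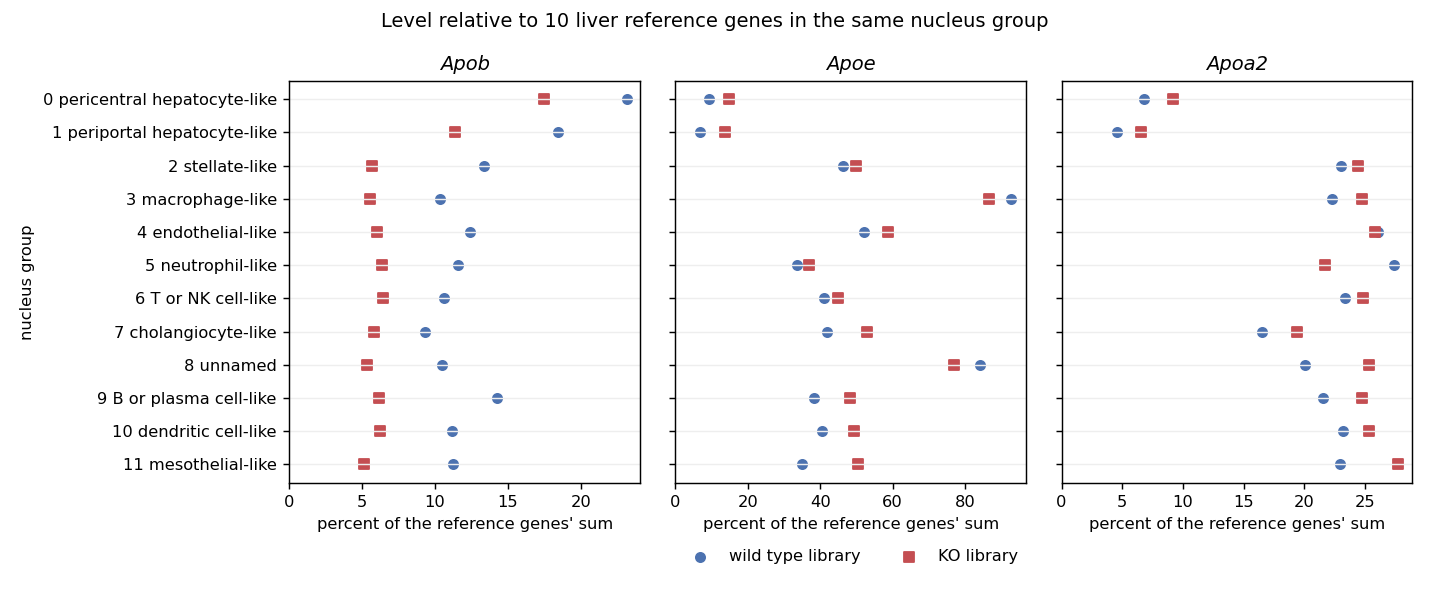
Level of Apob, Apoe and Apoa2 as a percent of the summed level of 10 liver reference genes in the same nucleus group, for the wild type library (circles) and the KO library (squares). Apob is highest in the hepatocyte-like groups, Apoe reaches 92.7% in the macrophage-like group, and Apoa2 is lowest in the hepatocyte-like groups.

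The remaining members were divided less sharply, with a hepatocyte-like mean over the median of the other groups of 1.89 for Apoa1, 1.74 for Apoc1 and 1.23 for Apoc3 in the wild type library. Apoa1 in the wild type library was at 3.44 and 3.94 in the hepatocyte-like groups and at 0.865 to 4.47 elsewhere, and was higher in the KO library in all 12 groups. Apoc1 was at 3.70 and 3.80 in the hepatocyte-like groups and 3.05 in the macrophage-like group of the wild type library, and reached 20.0 in the neutrophil-like group of the KO library. Apoc3 was at 1.41 and 1.73 in the hepatocyte-like groups, with 2 other groups above both. Apom was near the limit of the table, with 0 listed in the neutrophil-like, dendritic cell-like and mesothelial-like groups of both libraries and at most 0.190 elsewhere.

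**Figure D4:**
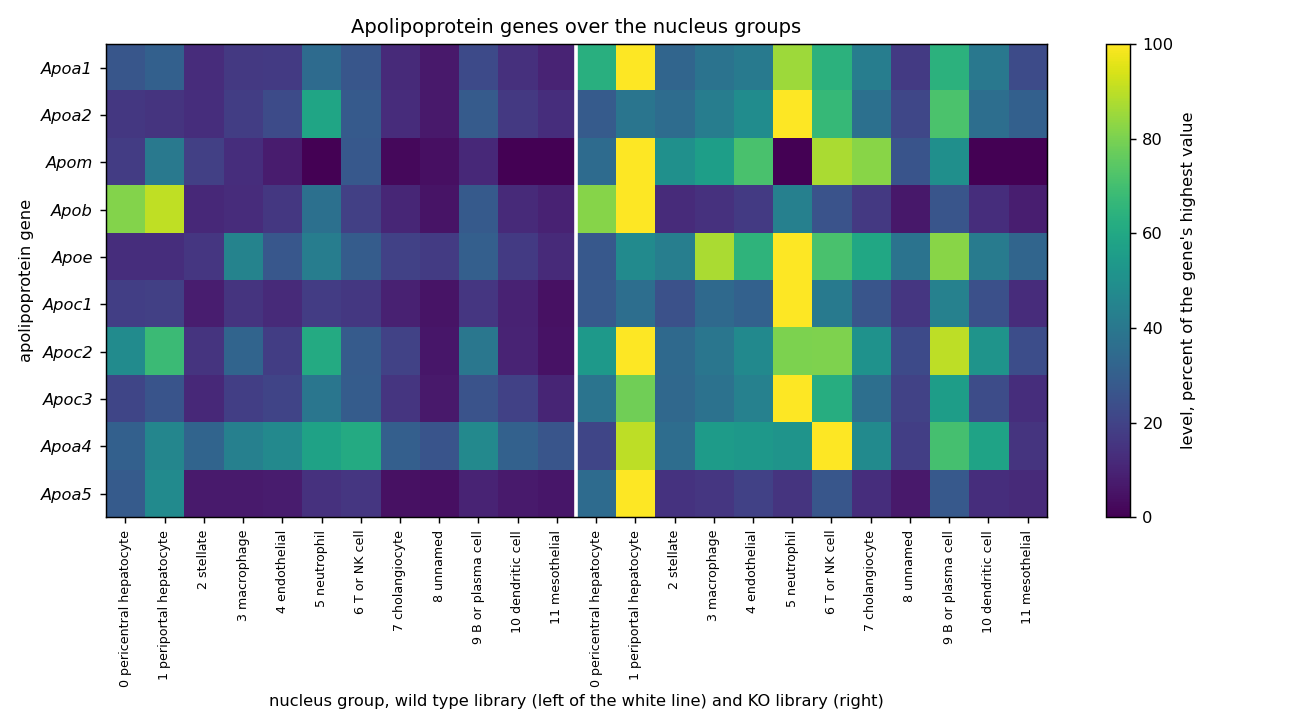
Level of each apolipoprotein gene in 12 nucleus groups of the wild type library (left) and the KO library (right), as a percent of that gene's highest value over the 24 columns. Apob is bright in the hepatocyte-like groups of both libraries, and the highest value of every member lies in the KO library, for Apoe, Apoa2, Apoc1 and Apoc3 in its neutrophil-like group.

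Within hepatocyte-like nuclei the periportal group was higher than the pericentral group for most members. In the wild type library the periportal to pericentral ratio was 0.936 for Apoa2 and 1.03 to 2.28 for 8 genes, while Apoe was level at 6.08 and 6.11. In the KO library it was 1.22 to 4.29 over all 10. For the reference gene Alb it was 1.54 and 2.72 in the 2 libraries, and for Fabp1 0.720 and 0.686.

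Genes most alike in pattern were found by the Pearson correlation of log2 levels over the 24 columns, among the 2000 genes with the highest mean. The columns share 2 libraries, so r is a description. Apob was most like Mug1 (r = 0.99), Uox (0.98) and Plg (0.98), all genes of hepatocytes. Apoa5 was most like Fgg (0.93), Ahsg (0.92) and Hamp (0.92), and Apoa1 most like Alb (0.96). Apoe was most like another member, Apoa2 (0.87), followed by Mup20 (0.82) and Apoc1 (0.81). Apoa4 and Apom had the weakest likeness, with a highest r of 0.78 (Hp) and 0.72 (Mon2).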

How the data were processed

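RNA was measured in 12 bulk mouse liver libraries and 2 pooled nucleus libraries. Samples were grouped by their labels, although the table names and the Ms4a7 counts go against them. The authors deposited signal values of bulk genes as counts divided by 1 size factor per library, read from the values. They also deposited log2 fold changes and p-values of their own comparisons, and nucleus signal values as means of UMIs scaled to 10000 per nucleus. Per the submitters' processing notes, FastQC, STAR, DESeq2, Cell Ranger and Seurat 4.0.1 were used on mm10; read counter and annotation are not given in the sources used here.

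A gene entered the fit if its normalized count reached 10 in 3 of the 6 libraries. It was tested with limma 3.58.1 (trend, 2-sided) on log2(value + 1), with Benjamini-Hochberg adjustment over all genes tested and a threshold of 0.05; low genes have understated fold changes on this scale. Dividing by the step between low values gave whole reads, within 0.01, for 100% of the values of 11 libraries. On these, edgeR 4.0.16 and DESeq2 1.42.0 were run as alternatives. In PBS replicate 1 the step is so near 1 that recovery could not be told from the scale, so count tests of LD against PBS used 5 libraries. On simulated counts with known changes the tests were checked first. Deviations of same-numbered replicates from their group means had r from -0.04 to 0.13, and those of other pairs from -0.17 to 0.16. With 3 libraries a group this cannot exclude pairing. The main fit did not pair samples, and the replicate block was run as an alternative.

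Exon overlaps and lengths are from GENCODE vM21. Gene names that occur more than once among the nuclei (4 entries) were dropped. A group was named where at least 3 markers and most of a list were highest there; that rule was set after the table was seen, and a stricter one that also asked for a marker among the 10 leading genes left groups 2, 4, 7 and 8 unnamed. Named genes are all members, from each pathway list up to 4 genes that passed, by size of fold change and with a mean of at least 50, and the 3 genes most alike in nuclei. One gene of the transcription factor list that passed is not reported here by name. Members and lists were chosen with earlier results of these data known. Alternatives were other pseudocounts and filters, quantile normalization, count tests, a replicate block and leaving out each library.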

Additional observations from a re-analysis of the deposited data

How the results depend on the processing

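Depth and replicate number limit these results: 3 libraries a group, and unknown depth in nuclei. Fold changes of single members kept direction and side of the threshold in 268 of 280 alternatives. Other pseudocounts, other filters and the replicate block leave these fold changes all but unchanged by construction, so direction there was fixed in advance. No member passed in the main fit, so keeping its side means that it stayed uncalled. DESeq2 called Apoa4 between the labels KO and wild type and, on the 5 libraries without PBS replicate 1, Apoa2 between LD and PBS, where the authors' deposited table gives Apoa2 0.221 and Apoc1 0.0424 as adjusted p, and limma called Apoa4 without KO replicate 1 (-0.92). Apoc3 between LD and PBS was -0.0081 after quantile normalization, Apoa5 0.0019 and Apob -0.33. Leaving out 1 library turned values near 0, between -0.048 and 0.20 for Apoa1, -0.18 and 0.011 for Apoa2, -0.093 and 0.12 for Apoa5, -0.022 and 0.12 for Apom (KO) and -0.098 and 0.075 for Apob (LD). It moved by over 1.5 times, with no change of sign, Apob (-0.41 to -0.17), Apoc1 (-0.35 to -0.11), Apoc2 (-0.46 to -0.051), Apoc3 (-0.39 to -0.12) and Apoe (-0.24 to -0.090) for KO and Apoa2 (0.22 to 0.52), Apoa4 (-0.53 to -0.081), Apoa5 (0.12 to 0.29), Apoc2 (0.018 to 0.20) and Apom (0.073 to 0.38) for LD. With the replicate block 0 members passed in either comparison; the calls were 822 genes for KO and 793 for LD, against 589 and 620.

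Members called by DESeq2 numbered 1 in each comparison. All genes called numbered 1241 (KO) and 1083 (LD, 5 libraries) with DESeq2 and 413 (LD, 5 libraries) with edgeR. Leaving out 1 library gave 0 to 1 members for KO and 0 for LD, and for all genes 108 (without KO replicate 2) to 479 (without KO replicate 1) for KO, with 148 without KO replicate 3 and 317, 323 and 307 without wild type replicates 1, 2 and 3. For LD it gave 228, 206 and 1205 without LD replicates 1, 2 and 3 and 410, 135 and 169 without PBS replicates 1, 2 and 3.

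Pathway lists moved for KO with DESeq2 to 3 (HDL), 1 (receptors) and 2 (transcription factors), with edgeR to 2 (HDL), and with the replicate block to 3 (HDL), 1 (other apolipoproteins) and 2 (transcription factors). For LD they moved with DESeq2 to 4 (lipases), 4 (HDL) and 4 (other apolipoproteins), with edgeR to 0 (HDL), 0 (receptors), 1 (other apolipoproteins) and 1 (transcription factors), with pseudocount 10 to 1 (lipases), with quantile normalization to 1 (other apolipoproteins) and 2 (transcription factors), and with the replicate block to 2 (lipases) and 4 (other apolipoproteins). Leaving out 1 library gave 0 to 2 called in any list for KO. For LD it gave 0 to 1 (assembly), 0 to 3 (lipases), 0 to 4 (HDL), 0 to 2 (receptors), 0 to 4 (other apolipoproteins) and 1 to 5 (transcription factors). The cause was not tested.

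Per longest transcript in place of all exons, Apoe rose to 308828 and 884716 normalized counts per kilobase in the 2 tables, a shift of over 1.5 times, beside 322788 and 610268 for Apoa2. The 4 ratios between neighbouring genes kept their direction without each library, with Apoa1 over Apoa4 at 0.63 to 0.94. In nuclei, Alb alone in place of the reference genes moved 17 of 234 relative levels by over 1.5 times.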
